A study of Mus musculus with 4 samples.

Results

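The nuclear-encoded subunits of the respiratory chain and of ATP synthase were examined in TAMs, the macrophages of a tumor, sorted from MCA205 fibrosarcomas of mice with and without oral propranolol. Members were chosen by gene symbol: after the identifiers of the count table were matched to GENCODE release M21 on mm10, every protein-coding gene named for a subunit of complex I (Nduf a, b, c, s or v), complex II (Sdha to Sdhd), complex III (the Uqcr genes and Cyc1), complex IV (Cox4 to Cox8) or complex V (Atp5) was taken. This gave 86 genes of the 54146 listed, namely 37, 4, 9, 18 and 18 genes of complexes I to V, and 82 of them had enough counts to be tested. The rule reads names and no measured value.

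The mice were female C57BL/6, between 8 and 16 weeks old, and carried MCA205 cells, an established mouse fibrosarcoma line, under the skin of the flank. Control mice, labelled vehicle, were not given the drug, and the treated mice had drinking water with propranolol, a nonselective blocker of beta-adrenergic receptors, at 0.5 g/L from the day the tumor cells were injected. Cells bound by CD45 beads were stained, and live CD11b+F4/80+ cells were sorted for poly-adenylated RNA sequencing, with 2 libraries per group. How many mice went into a library is not given in the sources used here, so the p-values measure the spread between these libraries. Genes for the sorting antigens and macrophage products were abundant in all 4 libraries. Adgre1, which encodes F4/80, stood at 975 and 1008 CPM in the vehicle libraries and 1151 and 1100.01 CPM in the propranolol libraries, and Itgam, which encodes CD11b, at 359 and 352 CPM in the vehicle libraries and 369 and 313 CPM in the propranolol libraries. CPM is the usual library-size scaled count of a gene, here after TMM normalization, which corrects for differences in RNA composition.

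As background, complexes I and II pass electrons from NADH and succinate to coenzyme Q, complex III passes them on to cytochrome c, and complex IV delivers them to oxygen. Complexes I, III and IV pump protons across the inner mitochondrial membrane as they do so, and complex V, the ATP synthase, uses the returning protons to make ATP. Most subunits are encoded in the nucleus and imported, while a small core is encoded by the mitochondrial genome. Macrophages that respond to interleukin 4 are known for a high use of this pathway, and those activated by bacterial products for a lower one.

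The libraries held 13798249 and 23018142 counts for vehicle replicates 1 and 2 and 39818103 and 16424081 counts for propranolol replicates 1 and 2. The 86 genes took 0.739% and 0.723% of these counts in the vehicle libraries, and 0.903% and 0.807% in the propranolol libraries. Both propranolol shares lay above both vehicle shares. With an edgeR quasi-likelihood test fitted on all 14688 tested genes, a gene was called when its Benjamini-Hochberg adjusted p was under 0.05 and its change over 1.5-fold. By this rule 23 of the 82 tested subunits rose in TAMs of propranolol treated mice (28.0%), beside 12.2% of all tested genes. A further 5 fell (6.1%), beside 15.6% of all tested genes, and 54 were not called. The median log2 fold change of the tested subunits was 0.34, against -0.02 for all tested genes. The changes were moderate: 7 of the 23 genes that rose were over 2-fold, and their log2 fold changes ran from 0.60 to 1.18.

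**Figure D1:**
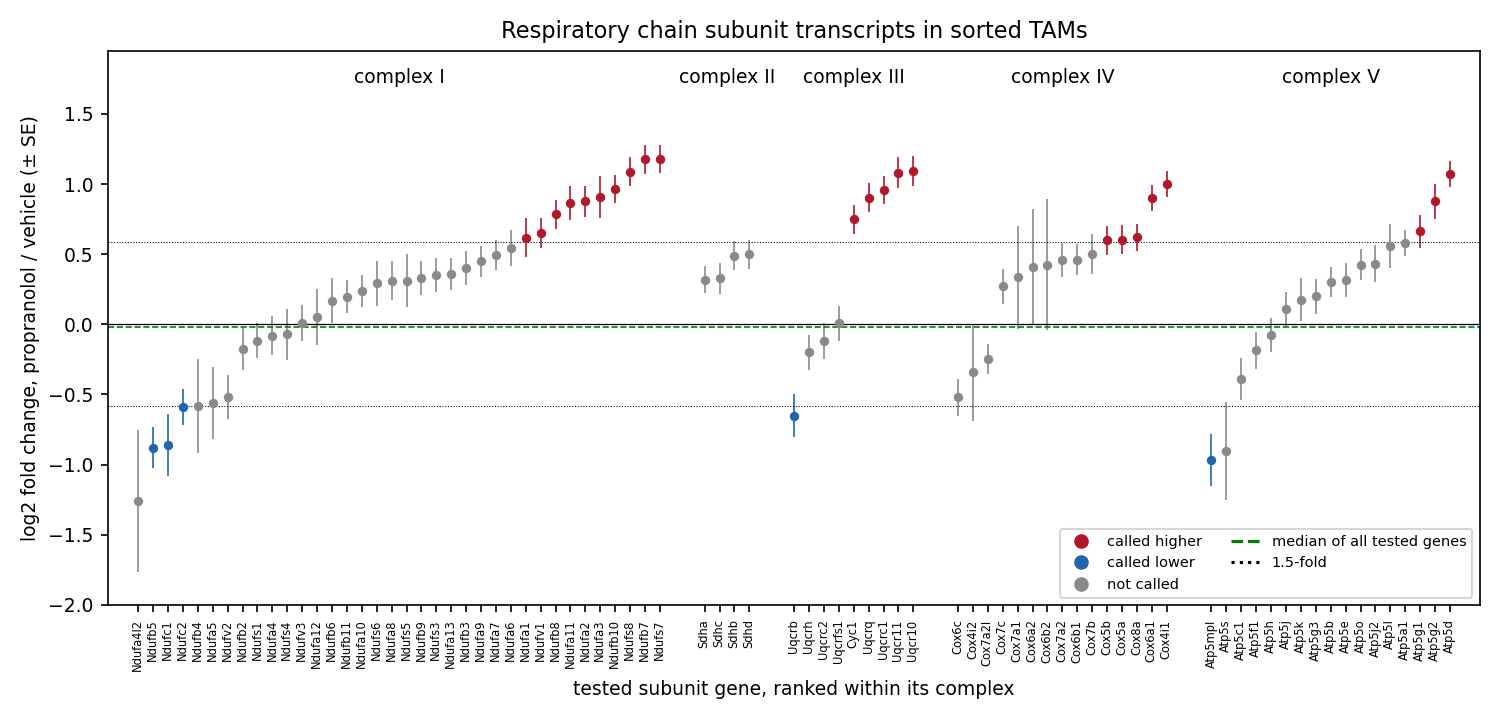
Log2 fold change of propranolol over vehicle with its SE for the tested subunit genes, ranked within their complex, from 2 libraries per group. Red points were called higher (23), blue points lower (5) and grey points not called, the dashed line is the median of all tested genes at -0.02 and the dotted lines mark 1.5-fold. Complex II lies between 0.32 and 0.50 with no call, and each of the other 4 complexes holds called genes together with genes near or below 0.

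Without a minimum fold, 42 subunits had an adjusted p under 0.05 and a higher level with propranolol, beside 21.8% of all tested genes, and 7 a lower level, beside 20.4%. Both propranolol libraries lay above both vehicle libraries for 51 subunits (62.2%), beside 35.8% of all tested genes. They lay below both for 15 subunits (18.3%), beside 36.9%. The 23 risen and the 5 fallen genes were all among those without overlap. Of the 23, 17 were called with each library left out in turn, whereas Ndufa1, Ndufv1, Cox5a, Cox5b, Cox8a and Atp5g1 were not. Of the 5 that fell, Atp5mpl and Ndufb5 were called with each library left out. The number that fell was 10 without propranolol replicate 1, beside 15% of all genes tested then, 2 without propranolol replicate 2, beside 11%, and 3 without vehicle replicate 1, beside 10.4%. When libraries were scaled to total counts alone, which shifts the median of all genes by -0.23, 15 subunits were called higher, beside 4.15% of all tested genes, and 11 lower, beside 23.8%.

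Other measures moved between the same libraries. The calls on the marker lists stand beside 12.2% of all tested genes called higher and 15.6% called lower. The 11 markers of T and NK cells summed to 280 and 315 CPM in the vehicle libraries and 125 and 70.4 CPM in the propranolol libraries, and 10 of them fell. Nkg7, a granule protein gene of cytotoxic lymphocytes and the most abundant of them per transcript length, stood at 38.6 and 44.7 CPM in the vehicle libraries and 13.4 and 9.36 CPM in the propranolol libraries. The 9 markers of fibroblasts and fibrosarcoma cells summed to 2857 CPM in vehicle replicate 1 and 1126 CPM in vehicle replicate 2, against 666 and 703 CPM with propranolol, with Col3a1 the most abundant per transcript length, and 7 fell. The log2 fold change of Col3a1 was -1.97 ± 0.38 SE (adjusted p = 0.00239), and -0.90 without vehicle replicate 1. Vehicle replicate 1 stood apart here, and without it 27 subunits were called higher, beside 12.4% of all genes tested then, and 3 lower, beside 10.4%. The neutrophil list summed to 180 and 197 CPM with vehicle and 355 and 381 CPM with propranolol, and 5 of its 7 tested genes rose. S100a9, its most abundant gene per transcript length, stood at 19.2 and 21.05 CPM in the vehicle libraries and 83.8 and 82.4 CPM in the propranolol libraries. Of the 11 macrophage markers, which summed to 23033 and 22081 CPM with vehicle and 28883 and 26112 CPM with propranolol, Csf1r rose and 10 were not called, among them Lyz2, the most abundant per transcript length. Of the 11, 7 passed the adjusted p in the higher direction, Csf1r included, beside 21.8% of all tested genes. Both propranolol libraries lay above both vehicle libraries for 9 of the 11, beside 35.8%, and the median log2 fold change was 0.29. The 2 tested B cell markers went apart. Cd79b rose, with 8.70 and 11.8 CPM in the vehicle libraries and 19.4 and 15.98 CPM in the propranolol libraries. Ms4a1 fell at low levels, with 1.01 and 0.997 CPM in the vehicle libraries and 0.165 and 0.131 CPM in the propranolol libraries. The list sum, most of it from Cd79b, was 9.98, 13.5, 20.3 and 19.7 CPM in the same order. The 6 dendritic cell markers, led by Ccr7, summed to 26.8, 28.0, 17.4 and 16.2 CPM, and 2 fell. The endothelial list, led by Pecam1, summed to 49.97, 47.6, 63.7 and 62.8 CPM, and 1 of 5 tested genes rose. No marker on these lists was at 0 in every library, and the part of these cell types in the subunit result was not tested. In bulk RNA, fewer cells of a type and less RNA per cell cannot be told apart.

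The promoters of the 2 genes that rose most and of the 2 with the lowest fold changes among the fallen genes with a promoter entry are shown, because these 4 were called in opposite directions and all belong to complex I. They are RefSeq sequences on GRCm38.p6, the assembly of mm10, from 250 bases before to 50 bases after the gene's start in RefSeq, given on the strand of the gene. That start differs from the GENCODE start in the gene coordinates given further on, so that the interval of Ndufs7 lies inside the GENCODE gene. Ndufs7 lies at chr10:80249199-80249498 (plus strand), Ndufb7 at chr8:83566508-83566807 (plus strand), Ndufb5 at chr3:32736813-32737112 (plus strand) and Ndufc1 at chr3:51408906-51409205 (minus strand). Capitals mark a match, on either strand, to the letters AANATGGC, a form of the YY1 motif, or CCGGAAG, a form of the GABP motif.
Ndufs7: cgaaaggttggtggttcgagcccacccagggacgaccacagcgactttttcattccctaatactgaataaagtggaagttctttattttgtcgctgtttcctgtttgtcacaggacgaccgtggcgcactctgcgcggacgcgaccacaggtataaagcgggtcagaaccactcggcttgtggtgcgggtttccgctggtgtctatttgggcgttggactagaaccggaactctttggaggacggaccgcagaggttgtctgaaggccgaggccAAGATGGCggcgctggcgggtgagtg
Ndufb7: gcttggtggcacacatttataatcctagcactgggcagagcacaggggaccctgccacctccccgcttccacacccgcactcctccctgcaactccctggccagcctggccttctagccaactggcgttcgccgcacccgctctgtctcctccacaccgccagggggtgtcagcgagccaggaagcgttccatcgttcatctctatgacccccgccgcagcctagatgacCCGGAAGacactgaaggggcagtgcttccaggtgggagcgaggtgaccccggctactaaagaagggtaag
Ndufb5: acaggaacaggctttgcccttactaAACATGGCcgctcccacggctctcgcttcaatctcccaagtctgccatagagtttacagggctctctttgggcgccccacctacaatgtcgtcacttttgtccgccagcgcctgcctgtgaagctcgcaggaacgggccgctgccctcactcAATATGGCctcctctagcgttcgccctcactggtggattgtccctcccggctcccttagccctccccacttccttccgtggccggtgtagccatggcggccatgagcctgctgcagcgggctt
Ndufc1: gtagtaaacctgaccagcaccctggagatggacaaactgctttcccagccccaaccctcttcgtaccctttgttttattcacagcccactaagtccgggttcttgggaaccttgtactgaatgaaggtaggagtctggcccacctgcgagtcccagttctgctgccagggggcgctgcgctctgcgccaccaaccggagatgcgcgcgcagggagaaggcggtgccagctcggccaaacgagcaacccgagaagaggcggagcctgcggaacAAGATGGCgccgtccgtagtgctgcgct
Genes at both ends held the YY1 letters: Ndufs7, which rose, and Ndufb5 and Ndufc1, which fell. Ndufb7, which rose, held the GABP letters and not the YY1 letters. In Ndufs7 and Ndufc1 the match lies at the ATG that follows the start of transcription, so it may also be read as the start codon and its flank. Of 85 subunit symbols, 66 had a promoter in this set. The letters GCGCA, any base and GCGC in a row, a form of the binding motif of NRF1, a regulator of nuclear genes for mitochondria, stood in 25.8% of the 66 promoters, in 5.19% of 27025 promoters of all genes and in 10.9% of the promoters of tested genes. For the GABP letters the shares were 24.2%, 9.93% and 19.6%, for the YY1 letters 24.2%, 6.96% and 9.8%, and for AAGGTCA, a form of the ERR motif, 12.1%, 5.38% and 4.07%. Both strands were searched for each, and none of the 4 strings is contained in another. Among 19 promoters of subunits that rose, 4 held the NRF1, 5 the GABP, 5 the YY1 and 0 the ERR letters. Among 42 promoters of tested subunits that were not called, these numbers were 13, 11, 9 and 8. Among 3 promoters of subunits that fell, they were 0, 0, 2 and 0.

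Complex I, which oxidizes NADH, had 10 of its 37 subunits called higher (27%) and 3 called lower (8.11%), beside 12.2% and 15.6% of all tested genes. The median of their log2 fold changes was 0.31. A value given with an SE is a log2 fold change of propranolol over vehicle, here and for all genes that follow. Its hydrophilic arm is made of an N module that takes electrons from NADH and a Q module that hands them to coenzyme Q. Ndufs7 (chr10:80249121-80256794), which holds the last iron-sulfur cluster of the path, stood at 62.8 and 62.3 CPM with vehicle and 139 and 145 CPM with propranolol. The propranolol libraries lay more than 2-fold above the vehicle libraries, without overlap, and the log2 fold change was 1.18 ± 0.10 SE (adjusted p = 0.000103). Ndufs8, another iron-sulfur protein of the Q module, stood at 58.1 and 61.9 CPM with vehicle and 131 and 123 CPM with propranolol, a log2 fold change of 1.09 ± 0.10 SE (adjusted p = 0.000109). Ndufs3, a scaffold protein of the same module, stood at 42.1 and 37.4 CPM with vehicle and 52.7 and 48.4 CPM with propranolol (0.35 ± 0.12 SE, adjusted p = 0.0394). This passed the adjusted p but was under 1.5-fold. It did not pass without vehicle replicate 2 or without propranolol replicate 1, and it was at -0.02 once the trend on GC content was removed. Ndufa5, an accessory subunit of the Q module, had 21.9 and 21.8 CPM with vehicle and 19.2 and 9.69 CPM with propranolol. Its propranolol replicates lay far apart, and it was not called (-0.56 ± 0.26 SE, adjusted p = 0.103), although it was called lower without propranolol replicate 1 and without vehicle replicate 2 only passed the adjusted p.

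In the N module 2 of 10 subunits rose (20%) and none fell, beside 12.2% and 15.6% of all tested genes, with a median of 0.17. Ndufv1, the subunit that binds NADH and the flavin, stood at 83.7 and 74.8 CPM with vehicle and 129 and 119 CPM with propranolol, and its log2 fold change was 0.65 ± 0.11 SE (adjusted p = 0.00115). Without vehicle replicate 2 it no longer passed 1.5-fold, at 0.58. Ndufa2, an accessory subunit, was the other to rise, with 54.96 and 55.1 CPM with vehicle and 107 and 94.96 CPM with propranolol (0.88 ± 0.11 SE, adjusted p = 0.000286). Ndufs1, the largest subunit and a carrier of iron-sulfur clusters, stood at 58.5 and 54.7 CPM with vehicle and 56.5 and 47.5 CPM with propranolol, so that the groups overlapped and no difference was detectable (-0.12 ± 0.12 SE, adjusted p = 0.478). Ndufv2, the partner of Ndufv1, had 60.5 and 54.01 CPM with vehicle and 46.01 and 33.2 CPM with propranolol. Both propranolol values were lower, at -0.52 ± 0.16 SE (adjusted p = 0.0223), but under 1.5-fold. It was called lower without vehicle replicate 2 or without propranolol replicate 1, missed the adjusted p without either of the others, and was at 0.0048 once the trend on GC content was removed.

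In the distal part of the membrane arm 3 of 10 subunits rose (30%) and 1 fell (10%), beside 12.2% and 15.6% of all tested genes, with a median of 0.26. Ndufb7 (chr8:83566671-83571626), an accessory subunit on the side of the intermembrane space, stood at 52.9 and 55.8 CPM with vehicle and 126 and 119.8 CPM with propranolol. Every propranolol value was over 2-fold above the vehicle values, and the log2 fold change was 1.17 ± 0.10 SE (adjusted p = 0.000103). Ndufb5 (chr3:32736990-32751566), a neighbor in the same arm, went the other way with 46.8 and 41.9 CPM with vehicle and 26.7 and 21.02 CPM with propranolol, and it fell by 0.88 ± 0.15 SE (adjusted p = 0.00116) on the log2 scale. The others that rose were Ndufb10, from 68.9 and 64.9 CPM to 132 and 129 CPM (0.97 ± 0.10 SE, adjusted p = 0.000147), and Ndufb8, from 76.3 and 71.2 CPM to 131 and 122 CPM (0.78 ± 0.10 SE, adjusted p = 0.000371). In the proximal part 3 of 10 rose (30%) and 2 fell (20%), against the same shares of all tested genes, with a median of 0.34. Ndufa3 (0.91 ± 0.15 SE, adjusted p = 0.00113), Ndufa11 (0.86 ± 0.12 SE, adjusted p = 0.000476) and Ndufa1 (0.62 ± 0.14 SE, adjusted p = 0.00589) were higher, all of them small accessory subunits. Ndufc1 stood at 23.8 and 19.6 CPM with vehicle and 14.4 and 9.04 CPM with propranolol and fell by 0.86 ± 0.22 SE (adjusted p = 0.0104), and Ndufc2 stood at 62.04 and 60.1 CPM with vehicle and 44.9 and 35.95 CPM with propranolol and fell by 0.59 ± 0.13 SE (adjusted p = 0.00519). Neither Ndufc1 nor Ndufc2 was called without propranolol replicate 2, and Ndufc2 was not called without vehicle replicate 1. Ndufa4l2, an alternative form of Ndufa4 known from hypoxic cells, had the lowest fitted value of the complex. It stood at 3.37 and 1.79 CPM with vehicle and 1.32 and 0.720 CPM with propranolol, and its difference of -1.26 ± 0.51 SE (adjusted p = 0.0699) did not pass the test, although it did without vehicle replicate 2 or without propranolol replicate 1. Ndufa4 itself, kept in complex I by its name, is now counted with complex IV. Ndufa1, Ndufa2, Ndufa3, Ndufa5, Ndufa11, Ndufb8, Ndufb10, Ndufc1 and Ndufc2 were chosen for naming after their values were seen.

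Complex II oxidizes succinate and belongs to the TCA cycle as well. All 4 of its subunits were higher with propranolol in every library, beside 35.8% of all tested genes. All 4 passed the adjusted p in that direction, beside 21.8% of all tested genes, while none reached 1.5-fold. Sdha, the flavoprotein that oxidizes succinate, stood at 225 and 234 CPM with vehicle and 297 and 275 CPM with propranolol (0.32 ± 0.10 SE, adjusted p = 0.0230). Sdhb, its iron-sulfur partner, stood at 107 and 112 CPM with vehicle and 163 and 144 CPM with propranolol (0.49 ± 0.10 SE, adjusted p = 0.00431). For both proteins of the catalytic head the propranolol libraries lay above the vehicle libraries without overlap. The membrane anchors showed the same order, with 78.1 and 74.6 CPM with vehicle and 102 and 89.4 CPM with propranolol for Sdhc (0.33 ± 0.11 SE, adjusted p = 0.0343). Sdhd stood at 95.4 and 92.00 CPM with vehicle and 139.8 and 125 CPM with propranolol (0.50 ± 0.10 SE, adjusted p = 0.00369). The log2 fold changes of the complex spanned 0.32 to 0.50. Without propranolol replicate 2, 2 of the 4 passed 1.5-fold, namely Sdhb and Sdhd. Sdha missed the adjusted p without vehicle replicate 1, vehicle replicate 2 or propranolol replicate 1, and Sdhc without vehicle replicate 2 or propranolol replicate 1. Once the trend on GC content was removed, Sdhb was at 0.14 (adjusted p = 0.378) and Sdhc at 0.30 (adjusted p = 0.0705), while Sdha and Sdhd still passed the adjusted p.

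Complex III had the highest median, 0.75, with 5 of 9 subunits higher (55.6%) and 1 lower (11.1%), beside 12.2% and 15.6% of all tested genes. The summed level of the 9 genes was 714 and 681 CPM with vehicle and 1119 and 989.9 CPM with propranolol. Among the catalytic subunits, Cyc1, the cytochrome c1 protein, stood at 103 and 96.2 CPM with vehicle and 175 and 159.7 CPM with propranolol and rose by 0.75 ± 0.10 SE (adjusted p = 0.000455). Uqcrfs1, the Rieske iron-sulfur protein, stood at 77.01 and 68.8 CPM with vehicle and 80.1 and 65.9 CPM with propranolol. Its groups overlapped fully, and the log2 fold change was 0.01 ± 0.12 SE (adjusted p = 0.962). The core proteins, which face the matrix, were split as well. Uqcrc1 stood at 153 and 142 CPM with vehicle and 298 and 274 CPM with propranolol and rose by 0.96 ± 0.10 SE (adjusted p = 0.000147), whereas Uqcrc2 stood at 86.2 and 86.7 CPM with vehicle and 89.03 and 69.8 CPM with propranolol, with overlap between the groups and a value of -0.12 ± 0.13 SE (adjusted p = 0.485). Uqcr10 (chr11:4701973-4704342) and Uqcr11 (chr10:80402997-80406830), small membrane subunits, had the highest fold changes. Uqcr10 stood at 51.3 and 48.7 CPM with vehicle and 110.4 and 102 CPM with propranolol (1.09 ± 0.11 SE, adjusted p = 0.000118), and Uqcr11 at 51.6 and 49.4 CPM with vehicle and 114 and 99.1 CPM with propranolol (1.08 ± 0.11 SE, adjusted p = 0.000147). Uqcrq, chosen for naming after its value was seen, rose too, from 77.7 and 83.1 CPM to 158 and 143 CPM (0.90 ± 0.10 SE, adjusted p = 0.000212). Uqcrb (chr13:66900617-66905378), a small subunit near a coenzyme Q site, was the gene that fell, with 47.4 and 40.9 CPM with vehicle and 31.4 and 24.3 CPM with propranolol and a log2 fold change of -0.65 ± 0.15 SE (adjusted p = 0.00657). Uqcrb was not called without vehicle replicate 1 or without propranolol replicate 2, and its sign turned when the trend on GC content was removed, to 0.05. Uqcrh, the hinge protein that helps cytochrome c1 meet cytochrome c, had 66.6 and 65.6 CPM with vehicle and 63.3 and 51.4 CPM with propranolol and was not called (-0.20 ± 0.12 SE, adjusted p = 0.227).

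Complex IV, cytochrome c oxidase, had 5 of 15 tested subunits higher (33.3%) and none lower, beside 12.2% and 15.6% of all tested genes, with a median of 0.46. Cox4i1 (chr8:120668222-120674207), the subunit through which ATP is known to slow the enzyme, was the most abundant of all 86 genes per transcript length, with a mean of 1202 TPM (a level per length, from that of the principal transcript, scaled to the same sum in each library). It stood at 304 and 286 CPM with vehicle and 608 and 573 CPM with propranolol, about 2-fold higher without overlap, and the log2 fold change was 1.001 ± 0.09 SE (adjusted p = 0.000103). Cox6a1, the second most abundant per length with 1006 TPM, stood at 189 and 196 CPM with vehicle and 360.3 and 358 CPM with propranolol (0.90 ± 0.09 SE, adjusted p = 0.000143). The matrix subunits Cox5a and Cox5b rose as well. Cox5a stood at 84.1 and 82.1 CPM with vehicle and 134 and 118 CPM with propranolol (0.60 ± 0.11 SE, adjusted p = 0.00152), and Cox5b at 94.6 and 90.5 CPM with vehicle and 148 and 132 CPM with propranolol (0.60 ± 0.10 SE, adjusted p = 0.00149). Cox8a, chosen after its value was seen, rose by 0.62 ± 0.10 SE (adjusted p = 0.000916). Cox6c had the lowest fitted value, with 81.2 and 75.4 CPM with vehicle and 61.1 and 47.4 CPM with propranolol. Its propranolol values were below both vehicle values, at -0.52 ± 0.13 SE (adjusted p = 0.0109), which passed the adjusted p but not 1.5-fold. Without propranolol replicate 1 it was called lower, and without propranolol replicate 2 it missed the adjusted p. The number of risen genes moved with the library left out, as the range given further on shows. After the GC correction, also described further on, it was 3, beside 4.34% of all tested genes.

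The tissue-restricted forms of complex IV, known from muscle, lung or testis, were at 0 or at low counts. Cox7b2 and Cox8c had 0 counts in all 4 libraries, where a count of 0 allows up to 3 counts, and Cox8b had 1 count, in vehicle replicate 2. The 4 forms that could be tested were not called. Cox4i2, the form of Cox4i1 known from lung, stood at 2.83 and 4.27 CPM with vehicle and 2.83 and 2.82 CPM with propranolol (-0.34 ± 0.35 SE, adjusted p = 0.458), with overlap between the groups. Cox6a2, Cox6b2 and Cox7a1 stood between 1.32 and 3.03 CPM in every library. Their standard errors were 0.37 to 0.47, against a median of 0.12 over the tested subunits, and a 1.5-fold change was not detectable at this depth. Cox7a2l, grouped here as a factor of joined complexes, stood at 121 and 107 CPM with vehicle and 101 and 91.2 CPM with propranolol. It was not called (-0.25 ± 0.11 SE, adjusted p = 0.0941), and whether it joins complexes in these mice was not tested.

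Complex V had 3 of 17 tested members higher (17.6%) and 1 lower (5.88%), beside 12.2% and 15.6% of all tested genes, with a median of 0.30. The catalytic head changed by less than the threshold. Atp5b, the beta subunit that makes ATP, stood at 762 and 742 CPM with vehicle and 1010.5 and 841 CPM with propranolol, with a small shift without overlap (0.30 ± 0.10 SE, adjusted p = 0.0412). Leaving out propranolol replicate 1 gave 0.17, and leaving out the other propranolol library gave 0.46. The adjusted p was missed in the first case and without vehicle replicate 2. Atp5a1, the alpha subunit, stood at 599.7 and 597 CPM with vehicle and 948 and 839 CPM with propranolol and came close to 1.5-fold (0.58 ± 0.10 SE, adjusted p = 0.00112), which it passed with each library but propranolol replicate 1 left out. After the GC correction Atp5b was at 0.06 (adjusted p = 0.766) and Atp5a1 at 0.18 (adjusted p = 0.243). Atp5d (chr10:80138632-80145818), the delta subunit of the turning central stalk, stood at 139 and 143 CPM with vehicle and 299.7 and 296 CPM with propranolol. Its level was over 2-fold higher in both propranolol libraries, with a log2 fold change of 1.07 ± 0.09 SE (adjusted p = 0.000103). The c ring that is turned by protons is encoded by 3 genes for the same mature protein. Atp5g3, the most abundant of them with 476 TPM, stood at 149.97 and 152 CPM with vehicle and 196 and 151 CPM with propranolol, with overlap and no call (0.20 ± 0.13 SE, adjusted p = 0.231). Atp5g2 stood at 28.3 and 27.03 CPM with vehicle and 47.9 and 53.8 CPM with propranolol and rose by 0.88 ± 0.12 SE (adjusted p = 0.000516), and Atp5g1 stood at 46.2 and 44.96 CPM with vehicle and 77.1 and 66.9 CPM with propranolol and rose by 0.66 ± 0.12 SE (adjusted p = 0.00154). The 4 tested subunits of the peripheral stalk had a median of 0.01 and no call. Atp5mpl (chr12:111961375-111966977), a small proteolipid that sits at the membrane part, stood at 44.9 and 41.7 CPM with vehicle and 26.5 and 17.2 CPM with propranolol and fell by 0.97 ± 0.18 SE (adjusted p = 0.00229) on the log2 scale. Atp5s, a coupling factor named with the subunits but not a part of the enzyme, had 4.11 and 3.59 CPM with vehicle and 2.23 and 1.83 CPM with propranolol and was not called (-0.90 ± 0.35 SE, adjusted p = 0.0608). A second gene entry with the symbol Atp5o had 0 counts in all libraries. The number of risen members moved with the library left out, as the range given further on shows.

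**Figure D2:**
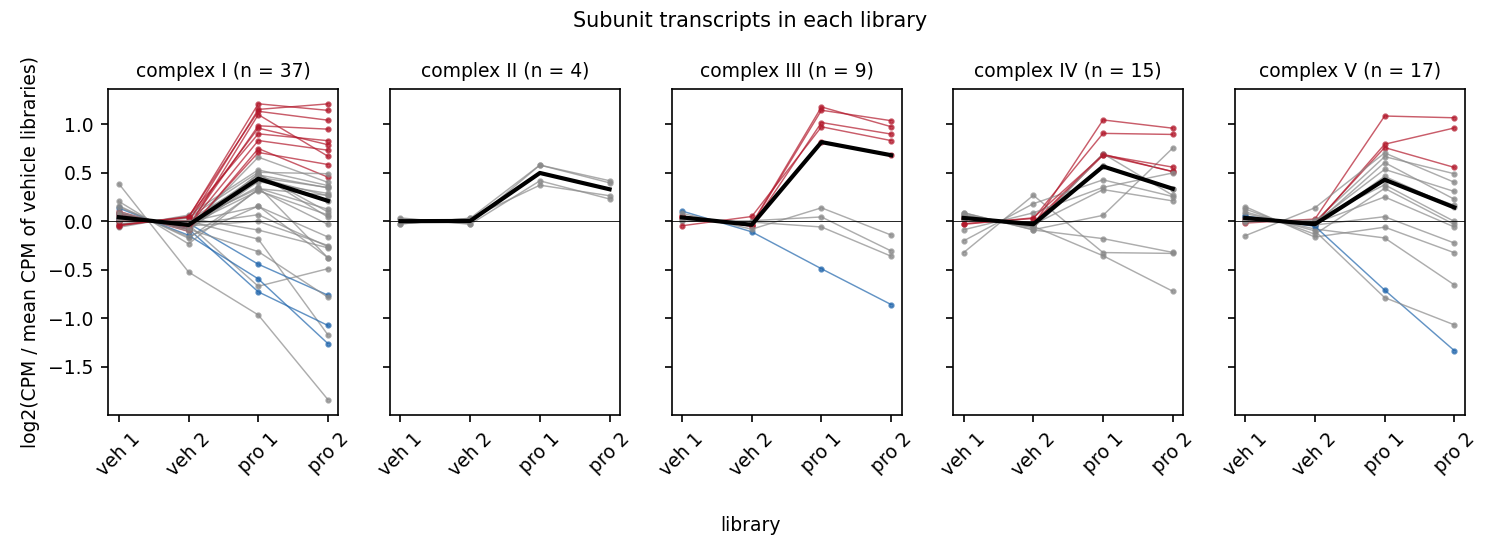
Level of each tested subunit in each library as log2 of its CPM over the mean CPM of the vehicle libraries, in a panel for each complex, with vehicle 1 and 2 (veh) and propranolol 1 and 2 (pro) on the horizontal axis. Thin lines are genes (red called higher, blue called lower, grey not called), and the thick black line is the median of the complex. The vehicle libraries lie close together, and propranolol 1 lies above propranolol 2 for 77 of 82 genes.

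The replicates did not spread alike, as the plot of levels by library shows. The median absolute difference between the vehicle replicates was 0.08 on the log2 scale, that between the propranolol replicates 0.22 and that between the group means 0.47. Propranolol replicate 1, the deepest library, was above propranolol replicate 2 for 77 of the 82 tested subunits, and vehicle replicate 1 above vehicle replicate 2 for 62. Standard errors of single log2 fold changes had a median of 0.12 and ran from 0.09 to 0.51. For the sum of all 86 genes the values were 6880 and 6630.1 CPM with vehicle and 9889 and 8679 CPM with propranolol.

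Fold change went with the GC content of the transcript, for the subunits and for all genes. Across the 82 tested subunits, which share the 4 libraries, the correlation of log2 fold change with the GC content of the longest transcript was 0.40 (Pearson) and 0.44 (Spearman), and across 14681 tested genes 0.51 and 0.58. With the GC content of the principal transcript it was 0.49 by both measures, with transcript length -0.14 and -0.19, and with the mean TPM 0.52 by both. The tested subunits were abundant, with a median of 174 TPM against 13.6 TPM for all tested genes and 18.2 TPM for tested protein-coding genes. Of the tested protein-coding genes, 13.8% were called higher and 16.2% lower. The part of abundance in the shares called was not tested. Of the 28 subunits of lowest GC content 4 rose and 3 fell, near the shares of 12.2% and 15.6% over all tested genes, with a median log2 fold change of -0.03. The 27 in the middle had 5 and 1 with a median of 0.31, and the 27 of highest GC content had 14 and 1 with a median of 0.62.

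**Figure D3:**
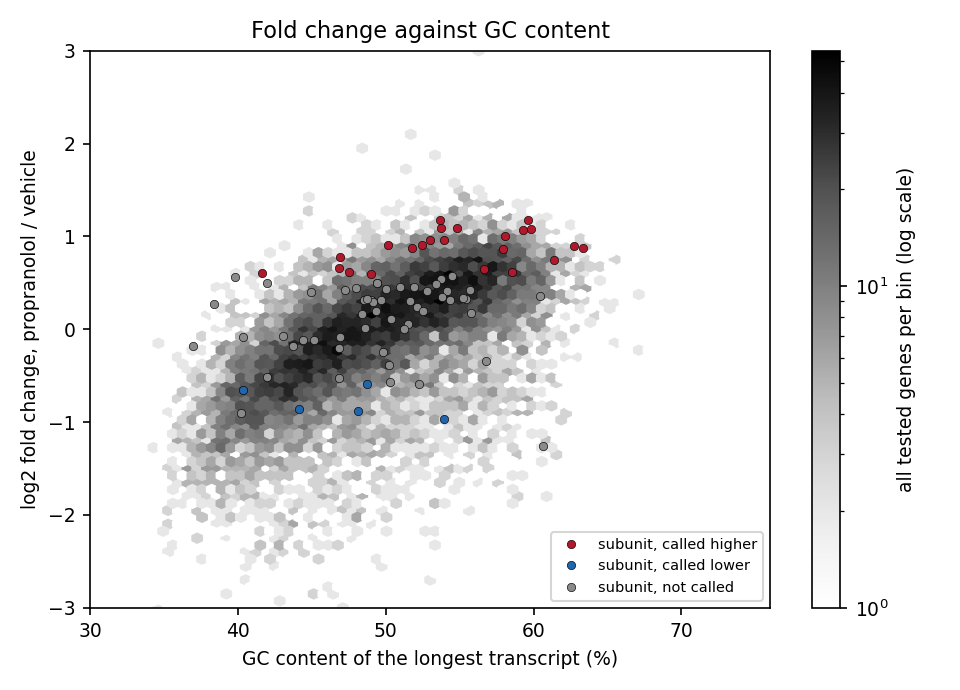
Log2 fold change of propranolol over vehicle against the GC content of the longest transcript in percent, with the number of all tested genes per bin in grey (log scale) and the 82 tested subunits as points (red called higher, blue called lower, grey not called). Genes beyond 3 on either side of the vertical axis, 92 in all, are not drawn. Subunits lie mostly within the cloud of all genes, which climbs with GC content (Spearman 0.58 across genes).

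When the trend of each library on GC content was removed, 21 subunits were called higher (25.6%), beside 4.34% of all tested genes, and 4 lower (4.88%), beside 6.47%. The median log2 fold change of the subunits was then 0.19. Of the 23 genes called higher from the counts as deposited, 15 were called here as well, and 3 of the 5 called lower. Those lost were Cox4i1, Cox6a1, Cox5b and Cox8a of complex IV, Cyc1, Ndufv1, Ndufa11 and Atp5g2 among the higher, and Uqcrb and Ndufc1 among the lower. After the correction Cox4i1 was at 0.54, Cox6a1 at 0.53, Cox5b at 0.55 (from 0.60), Atp5g2 at 0.53 and Ndufa11 at 0.40, which still passed the adjusted p but not 1.5-fold. Cox8a was at 0.16, Ndufv1 at 0.20, Cyc1 at 0.34, Ndufc1 at -0.54 and Uqcrb at 0.05, and these missed the adjusted p. The 6 called higher only after the correction were Ndufa4, Ndufb3, Cox7b, Cox7c, Atp5f1 and Atp5l, named because of this change. Of these, Ndufa4 turned from -0.08 to 0.62 and Atp5f1 from -0.18 to 0.94, while the others were above 0 before and after. Ndufa4l2 was called lower only after the correction, at -1.68. Because the longest transcript of some subunits keeps an intron, the correction was also made with the principal transcript. This gave 16 higher, beside 3.36% of all tested genes, and 3 lower, beside 6%, with 13 and 2 of them shared with the counts as deposited. Ndufb10, Ndufb8 and Uqcrc1, called higher after the first correction, and Ndufc2, called lower, were not called here. Of the 6 gains, Ndufa4, Cox7c and Atp5f1 were then not called. Removing a trend on exon length as well gave 21 higher, beside 4.43% of all tested genes, and 4 lower, beside 6.54%. With the principal transcript it gave 14 higher, beside 3.34%, and 4 lower, beside 6.3%. Ndufb10, Ndufb8, Uqcrc1 and Atp5d were not called in that fit. The 7 genes Ndufs7, Ndufs8, Ndufa2, Ndufb7, Uqcr10, Uqcr11 and Uqcrq were called higher in each of 19 alternative fits at an adjusted p under 0.05. A change over 1.5-fold was also required, except with glmTreat, which tests against 1.5-fold itself. Changed thresholds are not among the 19.

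**Figure D4:**
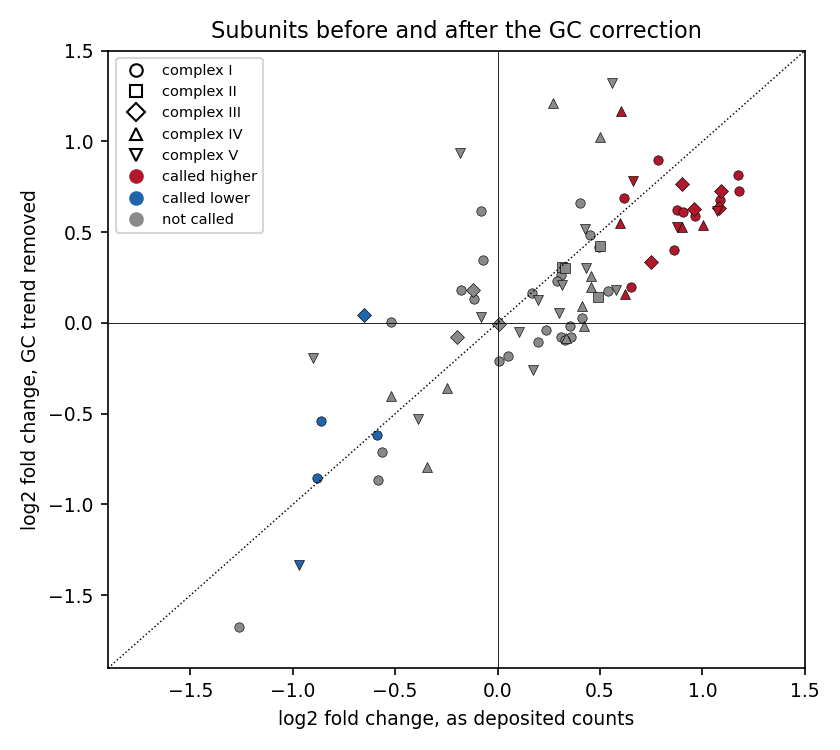
Log2 fold change of each of the 82 tested subunits from the counts as deposited (horizontal axis) against that after removal of each library's GC trend (vertical axis), with a shape for each complex and the color of the call from the deposited counts (red higher, blue lower, grey not called). Points below the dotted line of equality on the right are risen genes whose fold change shrank, such as Cox4i1 from 1.001 to 0.54, and Uqcrb is the blue point that moved to just above 0.

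Several subunits have close copies or overlapping neighbors in the genome, and since only alignments of high mapping quality were counted, their levels are uncertain. Of the tested subunits, 29 shared more than 10% of their 50-base stretches with transcripts of other genes and 12 more than 30%, of which 11 and 3 were called. Over all tested genes 27.8% were called in either direction. The 3 called subunits above 30% were Atp5g2 (87.4%), Uqcrb (43.4%) and Cox5a (32.0%). More than 10% of the exon bases overlapped another gene in 16 tested subunits, among them Cox5a, with 41.7% under Gm26631, Cox4i1, with 20.1% under Emc8, Ndufb5, with 20.0% under Mrpl47, and Atp5j, with 22.5% under Gabpa. No strand option is stated, and reads of such pairs cannot be told apart.

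The 13 subunits encoded by the mitochondrial genome were listed at 0 in all 4 libraries, as were all 37 genes of that genome, so the nuclear and mitochondrial parts of the complexes could not be compared. Assembly factors build the complexes without staying in them. Of 18 factors of complex I, 2 rose (11.1%) and 2 fell (11.1%), near the shares of all tested genes (12.2% and 15.6%), with a median of -0.15. Ndufaf3 stood at 9.31 and 11.5 CPM with vehicle and 21.2 and 22.3 CPM with propranolol (1.05 ± 0.17 SE, adjusted p = 0.00101), and Ndufaf8 rose by 0.82 ± 0.14 SE (adjusted p = 0.00150). Ndufaf4, a partner of Ndufaf3 in early assembly, fell, with 11.5 and 8.61 CPM with vehicle and 5.94 and 5.83 CPM with propranolol (-0.76 ± 0.23 SE, adjusted p = 0.0239, with its sign turned to 0.042 by the GC correction), as did Tmem126a (-0.71 ± 0.21 SE, adjusted p = 0.0218). Ndufaf4 was not called without vehicle replicate 1 (-0.49) or propranolol replicate 2, nor Tmem126a without propranolol replicate 2 (-0.43), while without propranolol replicate 1 Tmem126a was at -1.08. Factors of complexes II to IV had 6 of 33 higher (18.2%) and 1 lower (3.03%), with a median of 0.09. Cox14 (0.91 ± 0.11 SE, adjusted p = 0.000233) and Uqcc3 (0.86 ± 0.13 SE, adjusted p = 0.000854) rose and Cmc1, a chaperone of complex IV, fell (-1.28 ± 0.21 SE, adjusted p = 0.00115), while Lyrm7 stood under 1 CPM in every library and was not called. Tmem126a, Ndufaf8, Uqcc3 and Cox14 were not called once the GC trend was removed, Uqcc3 and Cox14 for the size of the change alone. None of the 6 genes of ATP synthase assembly and inhibition was called, and their median was -0.01. They included Atp5s, the lowest of them, which is also counted in complex V. Atpif1, the inhibitor of ATP synthase, stood at 63.9 and 59.3 CPM with vehicle and 76.7 and 62.2 CPM with propranolol. The assembly factors Atpaf1 and Atpaf2 were at 0.30 ± 0.20 SE (adjusted p = 0.258) and -0.16 ± 0.15 SE (adjusted p = 0.436).

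A further list held cytochrome c, the Coq and Pdss genes of coenzyme Q, and genes whose products feed electrons into coenzyme Q. The latter were Dhodh, Gpd2, Etfdh, Etfa and Etfb. Of its 19 tested genes 7 were higher (36.8%), Dhodh and Etfb among them, and 1 lower (5.26%). These shares stand beside 12.2% and 15.6% of all tested genes, and the median was 0.35. Coq4 (0.85 ± 0.21 SE, adjusted p = 0.00903) and Dhodh, which feeds electrons from pyrimidine synthesis into coenzyme Q (0.71 ± 0.19 SE, adjusted p = 0.0126), rose. Coq10b fell (-0.71 ± 0.19 SE, adjusted p = 0.0118). Dhodh was not called without vehicle replicate 1 or propranolol replicate 1, nor Coq10b without propranolol replicate 2. None of Coq4, Dhodh and Coq10b was called after the GC correction. Cycs, which encodes cytochrome c and links complexes III and IV, stood at 40.7 and 32.8 CPM with vehicle and 36.1 and 24.2 CPM with propranolol. The groups overlapped, and it was not called (-0.27 ± 0.19 SE, adjusted p = 0.281).

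Regulators of mitochondrial biogenesis had 2 of 17 tested genes higher (11.8%) and 3 lower (17.6%), near the shares of all tested genes (12.2% and 15.6%), with a median of -0.23. Esrra, the receptor ERR alpha that activates subunit genes, stood at 64.1 and 71.4 CPM with vehicle and 112 and 103 CPM with propranolol and rose by 0.67 ± 0.11 SE (adjusted p = 0.00104). Polrmt, the RNA polymerase of mitochondria, rose by 0.92 ± 0.13 SE (adjusted p = 0.000444). Gabpa, the DNA-binding subunit of GABP, stood at 71.1 and 62.3 CPM with vehicle and 35.1 and 30.5 CPM with propranolol, without overlap between the groups, and fell by 1.02 ± 0.13 SE (adjusted p = 0.000296) on the log2 scale. Mterf1a, a mitochondrial terminator protein, fell by 1.76 ± 0.63 SE (adjusted p = 0.0449) from very low levels and was not called with any of the 4 libraries left out, and Sirt1, a deacetylase, was the other to fall (-0.97 ± 0.17 SE, adjusted p = 0.00139). After the GC correction Esrra, Polrmt and Gabpa passed the adjusted p but not 1.5-fold, and Mterf1a missed the adjusted p. Nrf1 stood at 42.95 and 45.6 CPM with vehicle and 62.95 and 64.8 CPM with propranolol (0.53 ± 0.11 SE, adjusted p = 0.00381) and Tfam, the packaging factor of mitochondrial DNA, at 24.01 and 22.8 CPM with vehicle and 16.2 and 16.2 CPM with propranolol (-0.53 ± 0.14 SE, adjusted p = 0.0137), both past the adjusted p and under 1.5-fold in opposite directions. Ppargc1a, the coactivator known for driving this program in muscle and brown fat, had too few counts to test, as had Ppara and Esrrg. Sirt1, Nrf1 and Tfam were chosen after their values were seen.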

How the data were processed

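Poly-adenylated RNA of TAMs, sorted as live CD11b+F4/80+ cells, was sequenced in 2 vehicle and 2 propranolol libraries, grouped by the treatment that the labels give. The values are raw counts per gene, whole numbers without normalization, which the authors deposited in a table with a column for each library (0 columns were left out). Before deposit the authors mapped read pairs to mm10 using STAR (2.7.1a per the submitters' processing notes), kept alignments with MAPQ above 30 with SAMtools (1.9) and counted exons for read pairs with featureCounts (1.6.4) on a GENCODE annotation. Neither its release nor a strand option is given in the sources used here. Total counts were 13798249 and 23018142 for vehicle replicates 1 and 2, and 39818103 and 16424081 for propranolol replicates 1 and 2. Counting intervals and the limit of 3 counts for a count of 0 cover counting error only.

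Identifiers without their version were matched to GENCODE M21, which gave a symbol for 54079 of 54146 genes. All 14688 genes that passed filterByExpr (minimum count 10) were fitted in edgeR 4.0.16 (R 4.3.3) with TMM factors and the quasi-likelihood test, without covariates, and p-values were Benjamini-Hochberg adjusted over all of them. The authors used DESeq2, for which the study's methods and the processing notes give different versions. The standard error of a log2 fold change was its size divided by the square root of the F statistic. With 2 libraries per group an exact permutation test cannot go below p = 0.333. TPM was computed from the length of the principal transcript. The GC correction fitted a natural spline with 5 degrees of freedom, in each library, to the deviation of log2 CPM from the gene mean against GC content of the longest transcript, and entered it as an offset. The steps were tested on simulated data.

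The members, the gene and marker lists and the naming rule were chosen with earlier results of these data known, and no test over a list was made. The rule names the catalytic and core subunits, the 2 highest and the 2 lowest fold changes of each complex and of each list other than the marker lists, untested subunits, and the most abundant gene of each marker list. Groups within a complex were set after values were seen. A tested subunit, included in all counts, is not reported here by name or drawn with the fold changes by complex. Alternatives were DESeq2 1.42.0, limma-voom (limma 3.58.1), glmTreat, other scalings, filters and thresholds, each library left out, the replicate number as a block, and GC and length corrections. Those with the principal transcript were added after the data were seen.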

Additional observations from a re-analysis of the deposited data

How the results depend on the processing

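With DESeq2 size factors, the DESeq2 Wald test or limma-voom, the numbers of subunits called in each direction stayed within 1.5 times those reported. With each library left out in turn the ranges were 18 to 32 subunits higher, 2 to 10 lower, and a median of 0.26 to 0.47. For genes called higher they were 8 to 12 in complex I, 0 to 2 in complex II, 5 in complex III, 2 to 8 in complex IV and 2 to 6 in complex V, and over all genes 1837 to 2119 higher and 1664 to 2305 lower. The lone library of a group was then assumed to vary like the others.

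Total counts as scaling gave 15 subunits higher, 11 lower and a median of 0.11, with 2 higher in complex IV and 609 and 3497 over all genes. The glmTreat test against 1.5-fold gave 12 and 0 subunits, with 5, 2 and 1 higher in complexes I, IV and V, and 413 and 680 over all genes. Without a minimum fold there were 42 higher (17, 4, 8 and 8 in complexes I, II, IV and V) and 3205 over all genes. Above a log2 fold change of 1.5 there were 0 subunits in either direction, and 0 in each of complexes I, III, IV and V, beside 61 and 667 genes. An adjusted p under 0.01 left 1508 genes lower. Upper-quartile factors gave 2 and the stricter filter 3 higher in complex IV, and no filter 5 in complex V.

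Over all genes, the GC correction gave 637 higher and 951 lower, or 708 and 1328 with the replicate block, and the GC and length correction 651 and 960, or 728 and 1371 with the block. Complex IV had 3 genes higher in each of these, and the medians of the subunits were 0.19, 0.18, 0.20 and 0.19. With the principal transcript, chosen after the data were seen, the GC correction gave 3 subunits lower, 3 higher in complex III, 3 in complex IV, a median of 0.18 and 493 and 881 genes. The GC and length correction gave 14 higher, with 3 in complex III and 2 in complex IV, a median of 0.16 and 490 and 926 genes. What underlies the GC trend was not tested.

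The replicate number as a block gave 23 subunits higher, beside 12.7% of all tested genes, and 8 lower, beside 17%. The 3 added were Ndufa5, Ndufa4l2 and Atp5s. The labels give only a number, and same-numbered libraries deviated together with a correlation of 0.17 across all tested genes and 0.36 across the tested subunits, from 2 pairs.

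Signs turned for genes with small fold changes or low GC content. Ndufa4 and Atp5f1 turned under the GC correction, with the values given above. Under the GC correction Ndufs1 was at 0.13, Ndufs3 at -0.016, Uqcrc2 at 0.18, Uqcrfs1 at -0.0042, Ndufv2 at 0.0048, Uqcrb at 0.046, Ndufaf4 at 0.042, Atpif1 at -0.22, Cycs at 0.37 and Vdac3 at 0.23. With the block as well, Ndufs1 was at 0.12, Ndufs3 at -0.022, Uqcrc2 at 0.17, Uqcrfs1 at -0.014, Uqcrb at 0.034, Ndufaf4 at 0.041, Atpif1 at -0.23, Cycs at 0.35 and Vdac3 at 0.20. The GC and length correction put Ndufs1 at 0.12, Ndufs3 at -0.0093, Uqcrc2 at 0.19, Ndufv2 at 0.0089, Uqcrb at 0.071, Ndufaf4 at 0.025, Atpif1 at -0.20, Cycs at 0.36 and Vdac3 at 0.20. With the block it put Ndufs1 at 0.12, Ndufs3 at -0.014, Uqcrc2 at 0.18, Uqcrb at 0.061, Ndufaf4 at 0.024, Atpif1 at -0.21, Cycs at 0.34 and Vdac3 at 0.17. The principal transcript put Ndufs1 at 0.17, Ndufs3 at -0.00089, Uqcrc2 at 0.23, Ndufv2 at 0.071, Ndufaf4 at 0.14, Atpif1 at -0.12, Cycs at 0.46 and Dld at 0.045 under the GC correction. Under the GC and length correction it put Ndufs1 at 0.15, Ndufs3 at -0.024, Uqcrc2 at 0.20, Ndufv2 at 0.036, Ndufaf4 at 0.13, Atpif1 at -0.13, Cycs at 0.43 and Dld at 0.016. Total counts put Atp5g3 at -0.035, Uqcrfs1 at -0.23 and Atpif1 at -0.055. Uqcrfs1 was at -0.051 with upper-quartile factors, -0.014 with the stricter filter and -0.00073 with the replicate block. With a library left out, Ndufs1 ran from -0.25 to 0.030, Atp5g3 from -0.00076 to 0.41, Uqcrc2 from -0.31 to 0.074, Uqcrfs1 from -0.14 to 0.17, Cox4i2 from -0.54 to 0.012 and Cycs from -0.60 to 0.0094.

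Depth limits the subunits of low count, whose standard errors reach 0.51.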

Other observations

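Genes of the TCA cycle, which supplies NADH and succinate to the chain, were listed together with Pdha1, Pdhb, Pdhx and Dlat of pyruvate dehydrogenase and Pcx. None of these added genes was called. Of the 19 genes of the list, 8 were called higher (42.1%) and 1 lower (5.26%), beside 12.2% and 15.6% of all tested genes. The median fold change of the list was 0.38 on the log2 scale. Idh3g, a subunit of the NAD-dependent isocitrate dehydrogenase, stood at 81.1 and 87.1 CPM with vehicle and 164 and 165 CPM with propranolol (log2 fold change 0.97 ± 0.10 SE, edgeR adjusted p = 0.000136). Idh2, its NADP-dependent counterpart in the mitochondrion, stood at 117 and 101 CPM with vehicle and 210.3 and 211 CPM with propranolol (log2 fold change 0.95 ± 0.11 SE, edgeR adjusted p = 0.000182). Both lay above the vehicle libraries without overlap. Dld, the lipoamide dehydrogenase that several mitochondrial dehydrogenases share, fell, with 72.3 and 60.5 CPM with vehicle and 47.1 and 33.7 CPM with propranolol (log2 fold change -0.70 ± 0.16 SE, edgeR adjusted p = 0.00642), and its sign turned when the GC correction used the principal transcript. Dld was not called without vehicle replicate 1 or without propranolol replicate 2 (-0.46). Sucla2, a subunit of succinyl-CoA synthetase, stood at 41.5 and 35.7 CPM with vehicle and 28.6 and 23.3 CPM with propranolol (log2 fold change -0.56 ± 0.15 SE, edgeR adjusted p = 0.0118), under 1.5-fold, and was called lower without vehicle replicate 2 or propranolol replicate 1. After the GC correction Idh2 passed the adjusted p but not 1.5-fold, and Dld and Sucla2 missed the adjusted p. The summed level of the 19 genes was 1716 and 1667 CPM with vehicle and 2541 and 2353 CPM with propranolol.

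The machinery that brings proteins and metabolites into mitochondria had 4 of 20 genes higher (20%) and 2 lower (10%), beside 12.2% and 15.6% of all tested genes, with a median of 0.21. Tomm40, the pore through which subunits cross the outer membrane, stood at 65.1 and 68.1 CPM with vehicle and 155 and 145 CPM with propranolol (log2 fold change 1.17 ± 0.10 SE, edgeR adjusted p = 0.000103). Its propranolol values were over 2-fold above the vehicle values. Timm10, a chaperone between the membranes, stood at 8.50 and 7.81 CPM with vehicle and 18.1 and 16.2 CPM with propranolol (log2 fold change 1.08 ± 0.18 SE, edgeR adjusted p = 0.00112). Tomm70a, a receptor of the same outer membrane complex, went the other way and fell, with 94.7 and 82.9 CPM with vehicle and 55.0 and 46.6 CPM with propranolol (log2 fold change -0.80 ± 0.12 SE, edgeR adjusted p = 0.000822), and it was not called after the GC correction (-0.14). Vdac3, an outer membrane channel, fell too, with 48.6 and 47.5 CPM with vehicle and 37.4 and 24.4 CPM with propranolol (log2 fold change -0.62 ± 0.18 SE, edgeR adjusted p = 0.0180), and its sign turned under the GC correction. Vdac3 was not called without vehicle replicate 1 or without propranolol replicate 2 (-0.33), and without propranolol replicate 1 it was at -0.97.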
